A study of Mus musculus with 4 samples.

Results

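The genes described here are the MCM family of the mouse, 10 members in all among the 31053 features of the data: Mcm2, Mcm3, Mcm4, Mcm5, Mcm6, Mcm7, Mcm8, Mcm9, Mcm10 and Mcmbp. They were chosen by name, with earlier results of these data known, and each symbol stands for 1 feature. Single cells of the pituitary gland were measured in mice with transgenic overexpression of p25 (p25OE) and in wild-type (WT) littermates, with 1 library for each genotype at 40 weeks and at 14 weeks of age. p25 is a truncated form of p35, the Cdk5r1 product that activates the kinase Cdk5, and the title of the series names Mcm2 as a substrate of Cdk5. The groups are thus p25OE at 40 weeks, WT at 40 weeks, p25OE at 14 weeks and WT at 14 weeks, all given the strain label C57BL/6- B6;CBA-BiTg. The labels give neither the promoter that drives the transgene nor the number of glands in a library. With 1 library per group there is no spread between replicates. No p-value was computed, and every interval is an exact 95% interval that covers counting error only.

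The related proteins Mcm2 to Mcm7 form the ring that unwinds DNA at the replication fork. ORC, Cdc6 and Cdt1 load the ring on origins before S phase as an inactive double hexamer, and kinases then join it to Cdc45 and the GINS proteins to start the fork. Cells that have left the cycle usually lose MCM proteins, which is why pathologists stain them as a mark of cells licensed to replicate. Mcm8 and Mcm9 form a separate complex that acts in homologous recombination, Mcm10 helps to start and keep the fork, and Mcmbp binds MCM subunits outside the ring. Melanotrophs are the Pomc-producing endocrine cells of the intermediate lobe, and most of them do not divide in the adult.

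RNA was counted as unique molecular identifiers (UMIs), 1 per captured molecule. Barcodes with at least 500 genes and at most 20% mitochondrial UMIs were kept, which left 7726, 7927, 7667 and 6579 cells in the order p25OE at 40 weeks, WT at 40 weeks, p25OE at 14 weeks and WT at 14 weeks. Their median UMIs per cell were 6626, 4940, 6340 and 10778. Libraries of the same age shared 85 barcodes at 40 weeks and 13 at 14 weeks, and all other pairs of libraries shared at most 2. Cells were put in classes by marker genes, and the names, such as melanotroph-like, state no more than that a cell passed that level. Melanotroph-like cells numbered 6729 in p25OE and 615 in WT at 40 weeks, and 1691 in p25OE and 558 in WT at 14 weeks. Each of the 6 markers of the class exceeded its median over the remaining classes by at least 2-fold. The marker sum of 536, 223, 252 and 43 cells lay near the threshold, in the same order of libraries. Cdk5r1 stood at 17.2 CPM (UMIs scaled to a common total) in p25OE and 14.0 in WT melanotroph-like cells at 40 weeks, and at 25 in p25OE and 14.8 in WT at 14 weeks. Whether the transgene's RNA is counted under that symbol is not given in the sources used here.

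The promoters of the members are shown first, so that the letters before each gene can be read beside its values. RefSeq windows on GRCm38.p6, from 250 bases before to 50 after the start of the gene, were found for 9 of the 10 members; none was found for Mcm4. They were searched on both strands for the E2F octamers TTTCCCGC, TTTCGCGC, TTTGCCGC and TTTGGCGC, the letters that factors of the E2F family are known to prefer. At least 1 of them lay in the windows of 6 members, Mcm3, Mcm5, Mcm6, Mcm7, Mcm8 and Mcmbp, and in 2.26% of all 32851 windows in the RefSeq table. The windows of Mcm2, Mcm9 and Mcm10 held none. The window of Mcm10 ends in TTTGGCG, and whether the next letter completes TTTGGCGC was not read. A match is a description of letters and not a bound site. The 3 genes with the highest folds at 40 weeks, Mcm3, Mcm5 and Mcm6, are printed with Mcm2, which was higher in p25OE and has no match, with Mcmbp, which has a match and was not higher, and with Mcm9, which has no match and whose call depends on the processing. Capitals mark the E2F octamers on either strand, and in Mcm5 and Mcm6 the first run of capitals is a pair of overlapping matches. Each is written 5′ to 3′ along the gene. The windows lie at chr1:20820263-20820562 on the minus strand for Mcm3, chr8:75109259-75109558 on the plus strand for Mcm5, chr1:128359656-128359955 on the minus strand for Mcm6, chr6:88898731-88899030 on the minus strand for Mcm2, chr7:128740380-128740679 on the minus strand for Mcmbp and chr10:53629908-53630207 on the minus strand for Mcm9.
Mcm3: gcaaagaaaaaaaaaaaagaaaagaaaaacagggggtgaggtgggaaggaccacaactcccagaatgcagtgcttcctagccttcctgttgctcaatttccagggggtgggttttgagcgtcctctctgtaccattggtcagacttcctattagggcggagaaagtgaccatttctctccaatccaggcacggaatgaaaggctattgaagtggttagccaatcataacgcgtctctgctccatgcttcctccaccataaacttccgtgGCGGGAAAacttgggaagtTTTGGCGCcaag
Mcm5: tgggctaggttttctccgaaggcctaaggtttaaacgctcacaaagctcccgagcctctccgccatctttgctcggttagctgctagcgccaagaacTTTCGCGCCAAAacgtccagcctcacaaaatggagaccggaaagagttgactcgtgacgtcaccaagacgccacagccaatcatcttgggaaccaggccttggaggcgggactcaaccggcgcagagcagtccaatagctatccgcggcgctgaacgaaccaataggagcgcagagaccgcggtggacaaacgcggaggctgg
Mcm6: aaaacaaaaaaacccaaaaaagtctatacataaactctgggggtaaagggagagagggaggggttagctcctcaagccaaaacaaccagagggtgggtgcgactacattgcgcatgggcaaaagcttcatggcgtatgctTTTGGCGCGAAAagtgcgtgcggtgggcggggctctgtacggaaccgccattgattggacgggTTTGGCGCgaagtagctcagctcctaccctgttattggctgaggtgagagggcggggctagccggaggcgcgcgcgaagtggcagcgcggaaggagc
Mcm2: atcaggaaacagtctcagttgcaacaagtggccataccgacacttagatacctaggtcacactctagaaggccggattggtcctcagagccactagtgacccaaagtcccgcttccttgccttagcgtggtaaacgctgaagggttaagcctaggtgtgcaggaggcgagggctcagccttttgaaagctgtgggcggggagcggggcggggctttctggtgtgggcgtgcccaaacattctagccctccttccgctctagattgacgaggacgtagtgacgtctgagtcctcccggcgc
Mcmbp: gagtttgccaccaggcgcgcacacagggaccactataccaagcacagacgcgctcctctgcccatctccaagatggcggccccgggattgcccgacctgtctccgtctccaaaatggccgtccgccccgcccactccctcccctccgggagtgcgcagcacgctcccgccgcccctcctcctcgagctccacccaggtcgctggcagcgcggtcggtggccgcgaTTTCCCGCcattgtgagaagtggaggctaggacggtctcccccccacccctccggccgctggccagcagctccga
Mcm9: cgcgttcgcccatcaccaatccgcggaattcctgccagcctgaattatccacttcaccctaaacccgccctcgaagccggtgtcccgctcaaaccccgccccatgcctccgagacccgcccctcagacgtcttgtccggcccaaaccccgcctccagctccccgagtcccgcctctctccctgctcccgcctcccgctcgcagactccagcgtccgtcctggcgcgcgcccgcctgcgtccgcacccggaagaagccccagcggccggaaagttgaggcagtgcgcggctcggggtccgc

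Other promoter letters were common. The CCAAT box, the letters CCAAT on either strand, was present in windows of 8 of the 9 members and in 37.4% of all windows, and Mcmbp was the member without it. The CHR element of cell cycle genes, searched as TTTGAA or TTCGAA on either strand, was present in 2 of the 9, Mcm2 and Mcm7, and in 19.2% of all windows. Mcm7 has 2 annotated starts, of which 1 window held E2F octamers and the other held none.

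In melanotroph-like cells of p25OE glands the genes of the replicative ring were far above WT at both ages. Summed over Mcm2 to Mcm7, p25OE cells held 12260 UMIs or 221 CPM (217 to 225) at 40 weeks, against 128 UMIs or 30.3 CPM (25.3 to 36.0) in WT. At 14 weeks p25OE cells held 6447 UMIs or 369 CPM (360 to 378), against 619 UMIs or 56.9 CPM (52.5 to 61.6) in WT. The p25OE value lay above the WT value at both ages, and the 14-week values lay above the 40-week values in each genotype. Libraries of different ages also differ in barcode set and depth, so age cannot be told apart from processing. Folds were computed after median-of-ratios scaling, which sets the median gene near 1. So scaled, the sum was 5.59-fold higher in p25OE (4.69 to 6.70) at 40 weeks and 5.72-fold higher (5.26 to 6.22) at 14 weeks. Scaled by plain totals, the folds were 7.28 and 6.48, and the median log2 fold of all genes tested then stood at 0.41 at 40 weeks and 0.22 at 14 weeks.

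Of the 10 members, all had at least 20 UMIs over both libraries at each age, and 8 were at least 1.5-fold higher in p25OE at 40 weeks and 8 at 14 weeks. Some members met that minimum only through p25OE, with fewer than 20 UMIs in WT. These were Mcm3, Mcm5, Mcm6, Mcm8, Mcm9 and Mcm10 at 40 weeks and Mcm10 at 14 weeks. With plain totals 9 members passed the limit upward at 40 weeks, Mcm9 being the addition. A larger share of all genes tested passed it too with plain totals, as given in the last section. None was 1.5-fold lower at either age. With median-of-ratios scaling the same limit was passed upward by 20.3% of all genes tested at 40 weeks and 17.8% at 14 weeks. It was passed downward by 18.6% and 9.63%. The members' median log2 fold was 2.05 at 40 weeks and 2.28 at 14 weeks, beside medians of 0.03 and 0.04 over all genes tested.

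**Figure D1:**
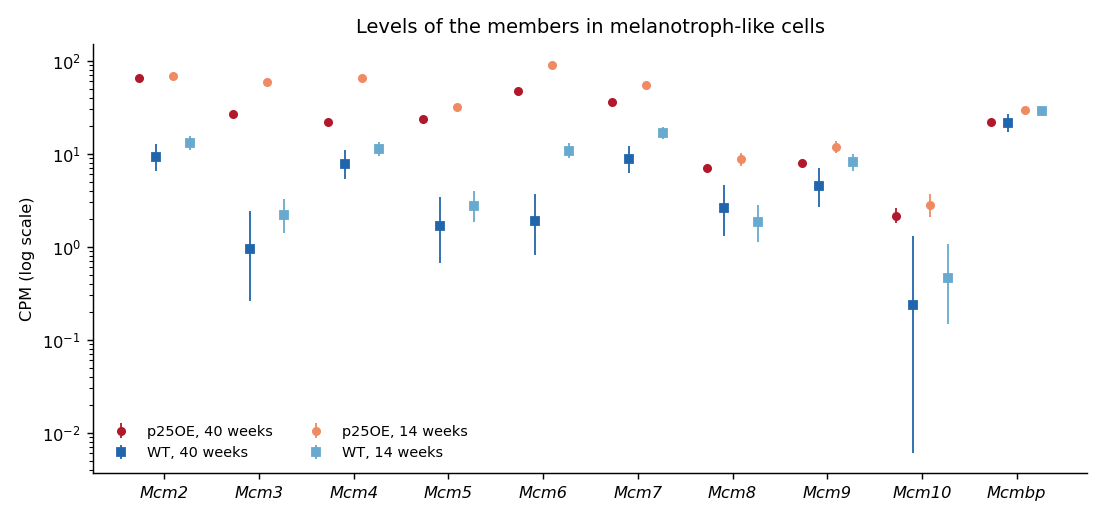
Level of each member in melanotroph-like cells, in CPM on a log axis, for p25OE and WT libraries at 40 and 14 weeks; points are summed UMIs of 1 library and bars are exact 95% Poisson intervals. The p25OE points lie above the WT points for Mcm2 to Mcm7, while those of Mcmbp nearly coincide.

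Mcm2, the subunit named in the series title, was the most abundant member by UMIs in p25OE cells at 40 weeks. It had 64.9 CPM (62.8 to 67) in p25OE and 9.24 (6.57 to 12.6) in WT at 40 weeks. At 14 weeks it had 68.4 (64.6 to 72.4) in p25OE and 13.2 (11.1 to 15.5) in WT. The folds of Mcm2 were 5.39 (3.93 to 7.59) at 40 weeks and 4.59 (3.85 to 5.49) at 14 weeks, below those of Mcm3, Mcm5 and Mcm6 at both ages. These are RNA levels, and phosphorylation was not measured.

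Mcm3, Mcm5 and Mcm6, subunits of the same ring, had the highest folds of the ring at both ages, and the first 2 had the lowest WT levels. Mcm3 had 1499 UMIs or 27.0 CPM in p25OE at 40 weeks against 4 UMIs or 0.95 CPM in WT, and 1021 UMIs or 58.4 CPM in p25OE at 14 weeks against 24 UMIs or 2.21 CPM in WT. Its folds were 21.9 (8.52 to 80.3) and 23.4 (15.6 to 36.6). Mcm5 had 23.6 CPM in p25OE and 1.66 in WT at 40 weeks, and 31.8 in p25OE and 2.76 in WT at 14 weeks. That gave 10.9-fold (5.28 to 27.2) at 40 weeks and 10.2-fold (7.05 to 15.2) at 14 weeks.

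Mcm6 had 47.2 CPM in p25OE and 1.90 in WT at 40 weeks, from 8 WT UMIs, and 89.0 in p25OE and 10.8 in WT at 14 weeks. Its folds were 19.1 (9.69 to 44.4) and 7.30 (6.04 to 8.88), and the first was 32.01 with equal weight per cell and 12.6 with a stricter gate that asked for 2 times the marker level. The intervals of the 2 ages do not overlap for Mcm6, but the difference between ages was not tested and cannot be told apart from processing.

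Mcm4 and Mcm7 complete the ring, with the lowest folds of it at 40 weeks. Mcm4 had 21.8 CPM in p25OE and 7.82 in WT at 40 weeks, and 65.9 in p25OE and 11.3 in WT at 14 weeks. Its fold was 2.14 (1.52 to 3.13) at 40 weeks and 5.14 (4.26 to 6.24) at 14 weeks, again without overlap of the intervals. Mcm7 had 36.2 in p25OE and 8.76 in WT at 40 weeks, and 55.4 in p25OE and 16.7 in WT at 14 weeks, for folds of 3.17 (2.29 to 4.52) and 2.92 (2.49 to 3.44). Mcm7 overlaps Cops6 and Ap4m1 on the other strand, and whether counting used strand is not given in the sources used here, so its reads may include theirs.

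The accessory members behaved less alike. Mcm10, the fork factor, was rare, with 120 UMIs in p25OE and 1 in WT at 40 weeks and 49 in p25OE and 5 in WT at 14 weeks. Its ratios were 7.0 (1.23 to 279) and 5.38 (2.15 to 17.3). Mcm8 had 7.11 CPM in p25OE and 2.61 in WT at 40 weeks, and 8.75 in p25OE and 1.84 in WT at 14 weeks, for folds of 2.09 (1.16 to 4.23) and 4.20 (2.63 to 7.07). With equal weight per cell the Mcm8 folds were 1.47 at 40 weeks, under the limit, and 2.24 at 14 weeks. With the same stricter gate the Mcm10 ratio at 40 weeks was 4.03 (0.70 to 162).

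Mcm9, the partner of Mcm8, had 7.96 CPM in p25OE and 4.50 in WT at 40 weeks, and 11.8 in p25OE and 8.09 in WT at 14 weeks. Its folds of 1.36 (0.86 to 2.27) and 1.29 (1.0 to 1.68) were under the 1.5-fold limit. That call rests on the scaling and weighting at 40 weeks, where the fold of Mcm9 was 1.77 (1.12 to 2.96) with plain totals and 2.04 with equal weight per cell. Mcmbp had 21.8 in p25OE and 21.6 in WT at 40 weeks, and 29.5 in p25OE and 28.8 in WT at 14 weeks. Its scaled folds were 0.78 (0.63 to 0.97) and 0.90 (0.78 to 1.04), and with plain totals they were 1.01 and 1.02. Mcm9 overlaps Asf1a and Mcmbp overlaps Gm44674 on the other strand, with the same limit on strand as for Mcm7.

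**Figure D2:**
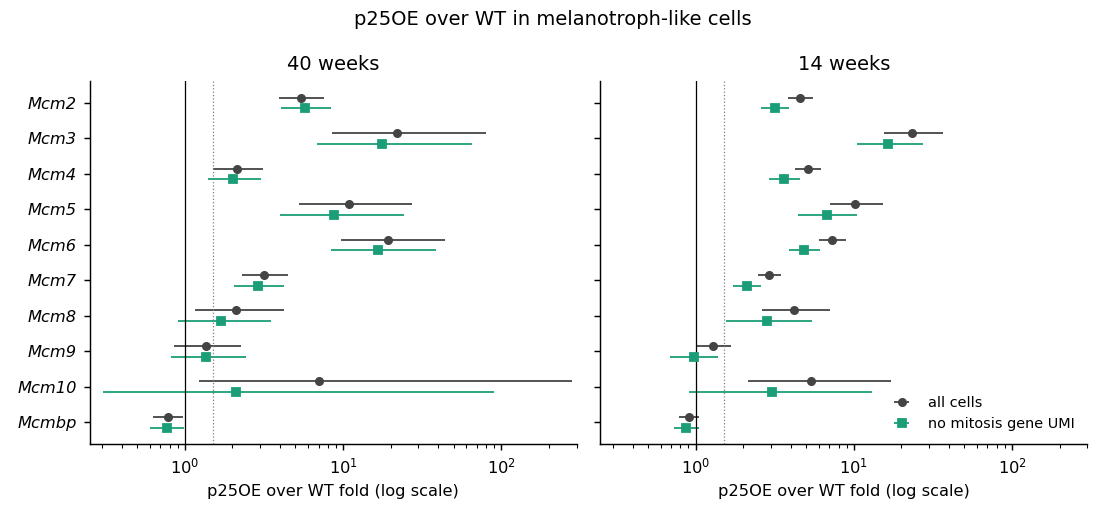
p25OE over WT fold of each member in melanotroph-like cells at 40 weeks and at 14 weeks on a log axis, over all cells and over cells with no mitosis gene UMI, with exact 95% intervals; the solid line is 1 and the dotted line 1.5. Mcm3, Mcm5 and Mcm6 lie farthest to the right at both ages, and Mcm9 and Mcmbp lie below the dotted line.

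Because the 6 subunits rose by different factors, their proportions differed between the genotypes. Mcm3 made up 12.2% of the Mcm2 to Mcm7 UMIs in p25OE at 40 weeks (11.7% to 12.8%) and 3.13% in WT (0.86% to 7.81%), and at 14 weeks 15.8% in p25OE and 3.88% in WT. Mcm7 made up 16.4% in p25OE and 28.9% in WT at 40 weeks, and 15% in p25OE and 29.4% in WT at 14 weeks. Both shifts point the same way at the 2 ages. The Mcm4 share was 9.89% in p25OE against 25.8% in WT at 40 weeks, while at 14 weeks it was 17.9% in p25OE and 19.9% in WT, with overlapping intervals. Shares of UMIs from a 3′ tag assay describe captured molecules and do not give the stoichiometry of the proteins.

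**Figure D3:**
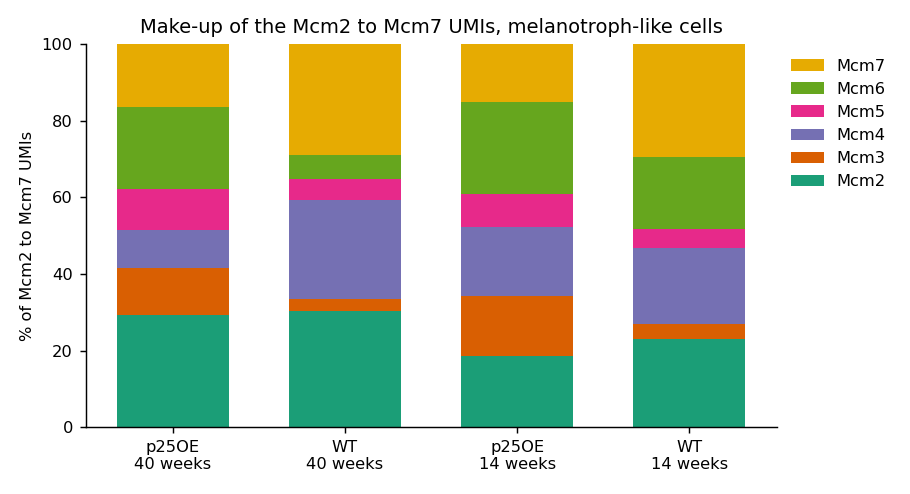
Share of each subunit in the Mcm2 to Mcm7 UMIs of melanotroph-like cells, in percent, as stacked bars that sum to 100, 1 bar per library. The Mcm3 band is wider and the Mcm7 band narrower in p25OE than in WT at both ages.

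Cells were next split by 10 mitosis genes, Mki67, Top2a, Ccnb1, Cdk1, Cenpf, Birc5, Ube2c, Nusap1, Tpx2 and Aurkb, which act in G2 and M phase. At least 2 of them were found in 1938 of the 6729 p25OE cells (28.8%) and in 1 of the 615 WT cells (0.16%) at 40 weeks. At 14 weeks the counts were 330 of 1691 in p25OE (19.5%) and 4 of 558 in WT (0.72%). No mitosis gene was found in 2704 p25OE and 583 WT cells at 40 weeks, and in 984 p25OE and 510 WT cells at 14 weeks. At least 1 mitosis gene was also found in 26.4% of the macrophage-like cells of p25OE and 5.04% of those of WT at 40 weeks, and the part of free RNA in these counts was not tested. Absence is also a matter of depth. The cells with none had median UMIs of 5386 in p25OE and 6755 in WT at 40 weeks, and 6084 in p25OE and 16288 in WT at 14 weeks.

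Melanotroph-like cells without a single mitosis gene UMI also differed between the genotypes. Their Mcm2 to Mcm7 sum was 196 CPM (189 to 203) in p25OE and 29.2 (24.1 to 35.0) in WT at 40 weeks, and 233 (223 to 244) in p25OE and 54.9 (50.3 to 59.8) in WT at 14 weeks. The scaled folds were 5.24 (4.35 to 6.36) and 3.97 (3.6 to 4.38). In these cells 9 members had enough UMIs at each age, all but Mcm10, and 7 of them were at least 1.5-fold higher in p25OE at 40 weeks and 7 at 14 weeks, beside 20.3% and 15.5% of all genes tested. Mcm9 and Mcmbp were again the exceptions, and no member was 1.5-fold lower, as were 16% and 8.37% of all genes. In WT, Mcm3, Mcm5, Mcm6, Mcm8 and Mcm9 had fewer than 20 UMIs at 40 weeks, as did Mcm8 at 14 weeks. These members thus met the minimum only through p25OE. At 14 weeks absence read in 1000 UMIs per cell, which lets in more cells, gave a fold of 5.22.

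Within p25OE, cells with at least 2 mitosis genes were set against those with none. At 40 weeks the Mcm2 to Mcm7 sum was 250 CPM (243 to 257) with and 196 (189 to 203) without them, a scaled fold of 1.22 (1.16 to 1.27). At 14 weeks it was 552 (532 to 572) with and 233 (223 to 244) without them, a fold of 2.07 (1.95 to 2.19). The median UMIs were 9557 with and 5386 without mitosis genes at 40 weeks, and 13328 with and 6084 without at 14 weeks. The part of depth in these folds was not tested.

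By member, 2 of 10 were at least 1.5-fold higher in the cells with mitosis genes at 40 weeks, beside 5.29% of all genes tested, and 9 of 10 at 14 weeks, beside 8.15%. None was 1.5-fold lower, as were 3.06% and 8.21% of all genes. The 2 at 40 weeks were Mcm5, with 30.3 CPM with and 17.0 without mitosis genes (1.69-fold, 1.47 to 1.95), and Mcm10. Mcm2 stood at 68.3 with and 61.1 without them at 40 weeks, a fold of 1.06 (0.98 to 1.15). At 14 weeks Mcm2 stood at 99.4 with and 44.9 without, a fold of 1.94 (1.69 to 2.22).

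Mcm10 followed the mitosis genes most closely of the members. It had 4.28 CPM with and 0.68 without mitosis genes at 40 weeks, a fold of 6.03 (3.22 to 12.49), and 5.97 with and 1.37 without at 14 weeks, a fold of 3.8 (1.87 to 8.37). Mcmbp had folds of 1.04 (0.90 to 1.19) and 1.2 (0.98 to 1.46) and was the member below the limit at 14 weeks.

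Per cell, detection depends on depth, so each cell was thinned to 1000 UMIs and shallower cells were left out, 153 in p25OE and 2 in WT at 40 weeks and 21 in p25OE and 10 in WT at 14 weeks. At this depth at least 1 of Mcm2 to Mcm7 was found in 21% (20% to 22%) of the cells in p25OE and 2.61% in WT (1.5% to 4.2%) at 40 weeks. At 14 weeks the shares were 28.0% (25.8% to 30.2%) in p25OE and 3.47% (2.10% to 5.36%) in WT. Without thinning the shares were 69.3% in p25OE and 16.9% in WT at 40 weeks, and 76.6% in p25OE and 56.3% in WT at 14 weeks.

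Macrophage-like cells serve as the background, although free RNA and their own MCM transcripts cannot be told apart in them. At least 1 subunit was found in 11.7% of them in p25OE and 5.37% in WT at 40 weeks, and in 9.68% in p25OE and 8.44% in WT at 14 weeks, at the same 1000 UMIs. Their median depths before thinning were 3301, 2466, 3346 and 3487 UMIs, against 6961, 6800, 8432 and 17164 in melanotroph-like cells, in the order p25OE and WT at 40 weeks, then p25OE and WT at 14 weeks. At this depth p25OE melanotroph-like cells lay above the macrophage-like cells of p25OE, and WT melanotroph-like cells below those of WT. At 2000 UMIs the WT order turned at 14 weeks, with 12.4% of melanotroph-like and 11.4% of macrophage-like cells and overlapping intervals. Mcm3 was the leading subunit of the macrophage-like cells, with 35.1 CPM in p25OE and 17.5 in WT at 40 weeks and 36.5 in p25OE and 23.2 in WT at 14 weeks. Mcm2 at 40 weeks was found in 7.09% of melanotroph-like and 1.95% of macrophage-like cells in p25OE, and in 0.82% and 0.81% in WT.

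Among p25OE melanotroph-like cells the share with at least 1 subunit was nearly flat over mitosis genes at 40 weeks until the top group. It was 20.6% with 0, 19.6% with 1, 21.2% with 2 to 4 and 31.6% (26.8% to 36.7%) with 5 to 10 mitosis genes. At 14 weeks the same shares were 23.0%, 29.5%, 39.5% and 46.0% (33.4% to 59.1%). At least 2 different subunits were found in 5.92% of cells with 5 to 10 mitosis genes and 2.13% of those with none at 40 weeks, and in 20.6% with 5 to 10 and 3.52% with none at 14 weeks. Seen from the other side, 531 of the 1382 p25OE cells with a subunit at 40 weeks had no mitosis gene UMI (38.4%, 35.9% to 41.1%), as did 222 of 467 (47.5%, 42.9% to 52.2%) at 14 weeks.

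**Figure D4:**
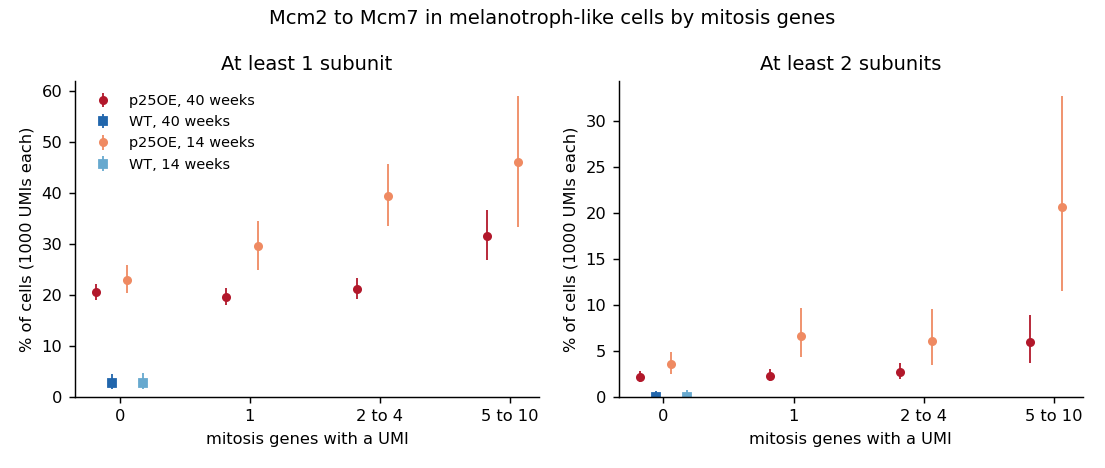
Share of melanotroph-like cells, each thinned to 1000 UMIs, with at least 1 subunit of Mcm2 to Mcm7 and with at least 2 different subunits, by the number of the 10 mitosis genes with a UMI; bars are exact 95% binomial intervals, and WT is drawn for cells with 0 because too few WT cells had more. At 40 weeks the p25OE shares differ little from 0 to 4 mitosis genes, and at 14 weeks they climb from 23.0% to 46.0%.

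Subunits of the ring were found together in single p25OE cells more often than the product of their shares gives. At 1000 UMIs the 15 pairs were seen together 206 times at 40 weeks where 150 were expected, a ratio of 1.37 (1.19 to 1.57), and 115 times at 14 weeks where 79.5 were expected, a ratio of 1.45 (1.19 to 1.74). In WT cells no pair was seen, with 0.15 expected at 40 weeks and 0.24 at 14 weeks, so that WT allows no reading at this depth. The intervals treat the pairs as separate counts, although a cell with 3 subunits enters 3 pairs. At 2000 UMIs all 15 pairs lay above 1 at each age, with summed ratios of 1.37 (1.27 to 1.48) and 1.67 (1.52 to 1.84).

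By pair at 2000 UMIs, Mcm3 with Mcm5 was seen in 25 p25OE cells at 40 weeks where 14.9 were expected, a ratio of 1.68 (1.09 to 2.48) and the highest of that age. The lowest was Mcm4 with Mcm5, seen in 12 cells where 11.2 were expected, a ratio of 1.07 (0.55 to 1.87). At 14 weeks the highest was Mcm5 with Mcm7, seen in 21 cells where 10.2 were expected, a ratio of 2.06 (1.28 to 3.15). Mcm2 with Mcm6, the most abundant pair, was seen in 81 cells where 67.3 were expected at 40 weeks and in 51 where 28.0 were expected at 14 weeks. Most of the intervals of single pairs overlap each other.

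**Figure D5:**
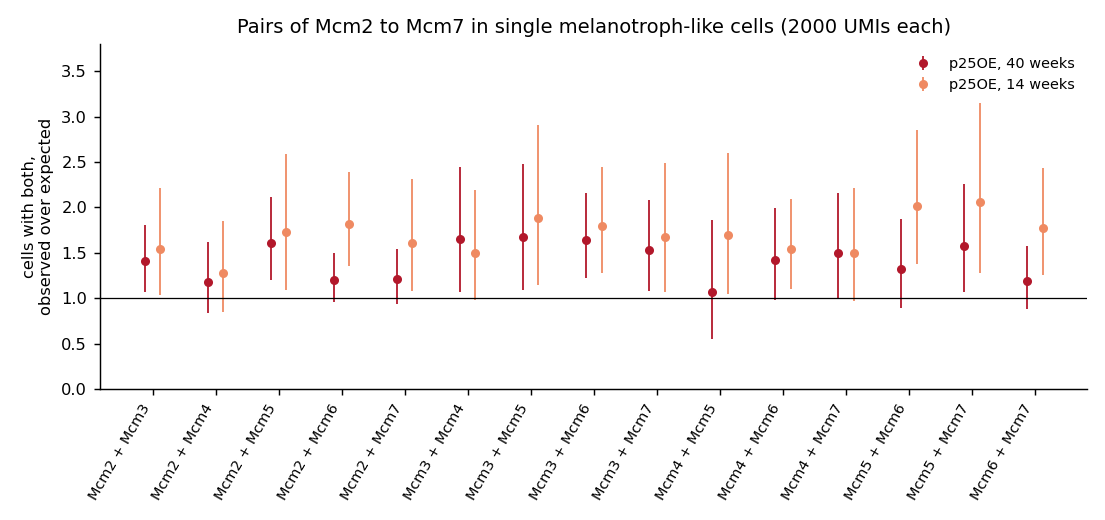
Number of p25OE melanotroph-like cells with UMIs of both genes of a pair, observed over expected from the product of their shares, for the 15 pairs of Mcm2 to Mcm7 at 2000 UMIs per cell; bars are exact 95% Poisson intervals of the observed count, and the line is 1. All points lie above 1 at both ages, from 1.07 to 1.68 at 40 weeks and from 1.28 to 2.06 at 14 weeks.

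Co-detection was also present apart from the mitosis genes. In p25OE cells with no mitosis gene UMI the summed ratio at 2000 UMIs was 1.56 (1.35 to 1.79) at 40 weeks and 1.48 (1.22 to 1.78) at 14 weeks. At 1000 UMIs it was 1.22 at both ages, with intervals of 0.94 to 1.55 and 0.85 to 1.71 that include 1. Among other replication genes, Cdt1, which loads the ring, shared cells with a subunit 91 times at 40 weeks where 59.9 were expected, over all p25OE cells at 2000 UMIs (1.52, 1.22 to 1.86). Cdc45, which joins the ring in the active helicase, did so 64 times where 42.0 were expected (1.52, 1.17 to 1.95), and Orc2, a subunit of the origin recognition complex, 73 times where 72.7 were expected (1.0, 0.79 to 1.26). These 3 are examples, and ratios of the replication genes ran from 0.97 for Mtbp to 2.02 for E2f8. Of the members outside the ring, Mcmbp had 0.97 (0.78 to 1.19) at 40 weeks and 1.04 (0.74 to 1.42) at 14 weeks. Mcm8 had 1.24 (0.88 to 1.70) and 1.58 (0.94 to 2.50), and Mcm9 1.09 (0.77 to 1.49) and 1.34 (0.86 to 1.99). Mcm10 had 1.22 (0.53 to 2.41) at 40 weeks. No background of unrelated genes is given for these ratios. Orc2 does not stand for its list, in which Orc3 to Orc6 ran from 1.03 for Orc5 to 1.18 (1.03 to 1.35) for Orc6. The 3 ratios at 14 weeks were 1.18 (0.70 to 1.86) for Cdt1, 1.24 (0.76 to 1.91) for Cdc45 and 1.18 (0.89 to 1.52) for Orc2. In cells with no mitosis gene UMI at 40 weeks the ratios of these 3 genes were 1.33 (0.80 to 2.08), 1.37 (0.75 to 2.30) and 1.02 (0.64 to 1.53), with intervals that include 1. Other replication genes in those cells ran from 0.59 (0.30 to 1.06) for Cdc7 to 1.72 (1.37 to 2.12) for Timeless. The intervals of Timeless, E2f1, Gmnn, Pcna, Rfc2 and Rfc3 lay above 1 at 40 weeks, and no interval lay below 1. At 14 weeks the intervals of all these genes included 1 in such cells. Their ratios were then 1.24, 1.46, 0.79, 1.11, 1.04 and 0.98 in the same order. Only the interval of Pold1 lay above 1 at 14 weeks (1.81, 1.08 to 2.87), and none lay below 1.

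Pomc took a smaller share of the RNA in cells in which subunits were found. In p25OE at 40 weeks Pomc took a median of 4.94% of the UMIs in cells with 2 or more subunits found at 1000 UMIs, 5.77% in cells with 1 and 7.71% in cells with 0. The medians at 14 weeks were 10.8%, 12.3% and 15.3%. In WT cells with 0 subunits the median was 23.9% at 40 weeks and 21.6% at 14 weeks. The same order held in p25OE cells with no mitosis gene UMI, with 5.08%, 5.88% and 7.91% at 40 weeks and 12.2%, 13.1% and 16.5% at 14 weeks. The quartiles overlap widely, and a larger share of Pomc leaves fewer of the 1000 UMIs for every other gene.

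Most of the helicase's partners were also higher in p25OE. Of 44 other replication genes in 8 lists, 37 passed the 1.5-fold limit upward in melanotroph-like cells of p25OE at 40 weeks and 36 at 14 weeks, and none passed it downward. Of all genes tested 20.3% and 17.8% passed it upward, and 18.6% and 9.63% downward, and these shares also apply to the single lists below. The median log2 folds of the 44 genes were 1.33 and 1.44, beside 0.03 and 0.04 over all genes tested. These counts were made with median-of-ratios scaling alone. In cells with no mitosis gene UMI 32 of 41 tested were higher at 40 weeks and 29 of 40 at 14 weeks, beside 20.3% and 15.5% of all genes tested. The direction of many of these genes was known from earlier results of the same data when the lists were chosen.

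Origin recognition stood apart as the list with the fewest genes past the limit, 2 of 6 at each age. The 2 were Orc2 and Orc6 at 40 weeks and Orc1 and Orc6 at 14 weeks. Orc3, Orc4 and Orc5, core subunits of the complex, had folds of 1.03, 0.94 and 1.22 at 40 weeks and 0.97, 1.02 and 0.93 at 14 weeks. Orc6 had folds of 1.76 (1.42 to 2.20) at 40 weeks and 1.65 (1.48 to 1.84) at 14 weeks. Orc1, the cell cycle regulated subunit, had 26 UMIs in p25OE and 0 in WT at 40 weeks, and 24 in p25OE and 0 in WT at 14 weeks. Against a floor of 3 counts in the WT library it was at least 4.39-fold higher in p25OE at 14 weeks, and no fold could be given at 40 weeks.

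The 3 loading genes passed the limit at both ages. Cdt1 was 9.38-fold higher (4.0 to 29) at 40 weeks and 8.38-fold higher (4.97 to 15.2) at 14 weeks. Cdc6 had 130 UMIs in p25OE against 0 in WT at 40 weeks, at least 2.53-fold higher, and 58 in p25OE against 3 in WT at 14 weeks, a ratio of 10.6 (3.46 to 53.0). Gmnn, the inhibitor of Cdt1, was 2.39-fold and 2.73-fold higher.

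Of the 5 partners in the active helicase, 4 passed at each age. Cdc45 was 4.12-fold higher (2.08 to 9.59) at 40 weeks and 6.30-fold higher (4.18 to 9.90) at 14 weeks, and Gins2 7.62-fold and 6.11-fold. Gins3 had folds of 1.43 (0.81 to 2.81) and 1.25 (0.84 to 1.91). All 6 origin firing genes passed at both ages, among them Dbf4, the activator of the kinase Cdc7 that phosphorylates the ring, at 4.48-fold (2.26 to 10.4) and 1.85-fold (1.35 to 2.58).

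At the fork, all 4 genes passed at both ages, and Clspn, the checkpoint mediator, had 832 UMIs in p25OE against 1 in WT at 40 weeks and 456 against 13 at 14 weeks. Its ratios were 48.5 (8.68 to 1919) and 19.3 (11.1 to 36.4). Of the 9 polymerase genes 8 passed at each age, with Pold2 below the limit at 1.16 and 1.3. Of the 6 clamp genes 6 passed at 40 weeks and 5 at 14 weeks. Pcna, the sliding clamp, was 2.79-fold higher (2.26 to 3.49) and 2.26-fold higher (1.95 to 2.62), less than the sum of the ring's subunits. Of 5 E2F genes 4 passed at each age, with E2f1 at 12.47-fold (7.55 to 22.3) and 9.12-fold (6.68 to 12.8), and E2f2 below the limit at 0.82 and 1.25.

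Other classes of pituitary cell had smaller differences. At 14 weeks the Mcm2 to Mcm7 sum in corticotroph-like cells was 110 CPM (98.4 to 122) in p25OE and 55.7 (46.5 to 66.2) in WT, a scaled fold of 2.0 (1.63 to 2.47). In somatotroph-like cells it was 63.9 in p25OE and 36.1 in WT (1.72-fold, 1.57 to 1.90), and in stem-like cells 94.7 in p25OE and 61.5 in WT (1.58-fold, 1.32 to 1.91). T or NK-like cells had 330 in p25OE and 210 in WT (1.55-fold), macrophage-like cells 112 in p25OE and 76.2 in WT (1.47-fold), and lactotroph-like cells 30.7 in p25OE and 22.5 in WT (1.41-fold). All 6 classes were higher in p25OE and none by as much as the melanotroph-like cells. In cells with no mitosis gene UMI the lactotroph-like sum was 23.6 CPM in p25OE and 20.9 in WT, and the macrophage-like sum 86.8 and 79.5. In the same order, corticotroph-like cells had 101 and 54.9 and somatotroph-like cells 54.6 and 34.9. Stem-like cells had 88.6 and 65.8, and T or NK-like cells 177 and 144. The part of free RNA from the melanotroph-like cells in these values was not tested.

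By member at 14 weeks, Mcm3 had the highest fold of the ring's genes in somatotroph-like cells (5.10, from 83 UMIs in p25OE and 24 in WT) and lactotroph-like cells (3.09, from 48 in p25OE and 33 in WT). In lactotroph-like cells with no mitosis gene UMI it stood at 1.02 CPM in p25OE and 0.72 in WT. In such somatotroph-like cells it stood at 3.91 and 0.84. At least 2 mitosis genes were found in 49 of 1146 lactotroph-like cells in p25OE and 10 of 2152 in WT. Mcm2 was 1.0-fold in lactotroph-like cells, from 95 UMIs in p25OE and 202 in WT. The scaled fold of Mcmbp lay below 1 in all 6 of these classes, from 0.42 in T or NK-like cells to 0.95 in lactotroph-like cells, and other scalings were not run for them. At 40 weeks only 3 other classes had 50 cells in both libraries. Their p25OE sums were 110 CPM in macrophage-like cells against 53.6 in WT (1.66-fold), 64.6 from 18 UMIs in somatotroph-like cells against 27.3 in WT (1.84-fold), and 32.3 from 23 UMIs in lactotroph-like cells against 24.7 in WT (1.37-fold, 0.86 to 2.09).

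Within WT the order of the classes by the Mcm2 to Mcm7 sum began with T or NK-like cells, at 111 CPM (84.3 to 143) at 40 weeks and 210 (181 to 242) at 14 weeks. Macrophage-like cells followed at 53.6 and 76.2, stem-like cells at 50 and 61.5 and corticotroph-like cells at 47.5 and 55.7. These 3 have overlapping intervals at 40 weeks, as do neighbours among them at 14 weeks. WT melanotroph-like cells came next at 40 weeks with 30.3, and at 14 weeks with 56.9 lay beside the corticotroph-like cells. Somatotroph-like cells had 27.3 and 36.1, and lactotroph-like cells 24.7 and 22.5. Thyrotroph-like cells, measured in WT at 40 weeks with 62 cells and 9 UMIs, had 13.7 (6.26 to 26.0), an interval that overlaps that of the lactotroph-like cells. In p25OE at 14 weeks the melanotroph-like cells, at 369, lay beside the T or NK-like cells, at 330 (284 to 382).

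The genes whose level followed the Mcm2 to Mcm7 sum most closely were ranked by Pearson correlation of log2(CPM + 1) over 37 groups of library, class and mitosis genes, among 14374 genes. The groups share libraries and differ in depth, so the values are a description. Outside the lists the first were Atad2 at 0.90, Lig1 and Smc2 at 0.89 each, Dek at 0.89 and Hells at 0.88, followed by Pnrc1, Hmgb2, Khdrbs1, Cenpu and Brd9 down to 0.86. Lig1 joins Okazaki fragments, Smc2 is a core subunit of condensin, and Hells is a chromatin remodeller. The members outside the ring followed less closely, Mcm9 at 0.58, Mcmbp at 0.51, Mcm8 at 0.42 and Mcm10, which is rare, at 0.37.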

How the data were processed

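The deposited values are whole-number counts of UMIs for each gene in each barcode. The authors used Cell Ranger against mm10, version 3.0.2 per the submitters' processing notes and version 3.0.1 per the file headers. Papain freed the cells, red blood cells were lysed, and libraries were made with the 10x 3′ v2 kit in 2 runs, per the labels' protocols. Which libraries shared a run is not given in the sources used here, so run, genotype and age cannot be told apart beyond what the labels say. The barcode sets differ between the ages.

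Each cell was classed by summed marker UMIs per 10000 into 15 classes; melanotroph-like needed 10 of Pcsk2, Pax7, Oacyl, Gulo and Esm1 together and 100 of Pomc. Cells that passed several gates (45, 436, 175 and 200, for p25OE and WT at 40 weeks, then p25OE and WT at 14 weeks) or none (643, 1264, 1436 and 860) were left out of classes. No doublet caller was run; leaving out the 6% of cells with the most UMIs is an alternative. UMIs were summed per library, class and number of mitosis genes, with exact Poisson intervals. Folds are p25OE over WT after median-of-ratios scaling, with exact conditional intervals, for genes with 20 or more UMIs over both libraries, and 1.5-fold was the limit for a call. Against 0 counts a floor of 3 counts per library was used, and no fold was given where that floor crossed 1. Detection and co-detection used cells thinned at random to 1000 UMIs. Genes named are the members, the replication and mitosis lists and the 10 genes most correlated with the Mcm2 to Mcm7 sum. The members and lists were chosen with earlier results of these data known. The ratio and co-detection steps were tested on simulated data. Tools were Python 3.11.15 with numpy 2.4.6, scipy 1.17.1, pandas 2.3.3 and matplotlib 3.10.9, and edgeR 4.0.16 in R 4.3.3 for the TMM alternative alone. Promoter windows are from RefSeq, and gene overlaps are from an annotation of GRCm38.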

Additional observations from a re-analysis of the deposited data

Results flagged for a closer look

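Cells that passed no marker gate, which enter no comparison of classes, also carried the ring's transcripts in p25OE. At 40 weeks 643 such p25OE cells had 224 CPM (207 to 242) of Mcm2 to Mcm7, against 48.4 (43.2 to 54.0) in 1264 such WT cells, and at least 2 mitosis genes were found in 25.8% of those from p25OE and 0.63% of those from WT. At 14 weeks 1436 p25OE cells had 258 (246 to 269), against 62.6 (57.0 to 68.6) in 860 WT cells, with at least 2 mitosis genes in 11.1% of those from p25OE and 2.33% of those from WT. They stand here because the signal lies above WT in cells outside the classes. In these p25OE cells at 14 weeks the sum was 4.02-fold higher (3.63 to 4.45) with at least 2 mitosis genes than with none, and at 40 weeks 1.24-fold (1.03 to 1.5).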

How the results depend on the processing

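Of 414 recomputed values of 118 results, 303 moved by less than their interval, 110 moved further and 1 turned its direction. With plain totals in place of median-of-ratios scaling, the fold of the Mcm2 to Mcm7 sum was 7.28 at 40 weeks and 6.48 at 14 weeks, and 38.0% of all genes tested at 40 weeks were at least 1.5-fold higher in p25OE. Over the other 6 alternatives (TMM scaling, no minimum of UMIs, stricter cells, a stricter gate, without the cells with the most UMIs, and equal weight per cell) the fold ranged from 5.25 to 6.34 at 40 weeks and from 5.51 to 6.05 at 14 weeks. Absence of mitosis genes read in 1000 UMIs gave 5.22 at 14 weeks in cells without them. Counting cells with at least 1 mitosis gene gave folds of 1.15 at 40 weeks and 1.88 at 14 weeks over cells without. At 2000 UMIs the co-detection ratio in p25OE cells without mitosis genes was 1.56 at 40 weeks, and in WT cells at 40 weeks it was 2.10, from 1 cell, in place of 0. Shares of cells with a UMI grow with the depth kept, by construction. The WT melanotroph-like counts, 4 UMIs of Mcm3 and 1 of Mcm10 at 40 weeks, limit those folds most. No paired analysis was possible because each group is 1 library and no test was made.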
